A study of Mus musculus with 18 samples.

Results

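The germ cell RNA-binding proteins are 10 genes chosen by name from the 52636 genes of the expression files. They are Ddx4, Dazl, Boll, Rbm46, Meioc, Ythdc2, Nanos2, Nanos3, Ybx2 and Stk31, and all 10 were found. Their transcripts were measured by poly-A RNA sequencing in 3 tissues, liver, brain and testis, taken from male C57BL/6 mice at 8 weeks of age. In each tissue there were 3 libraries from Pcgf6 knockout (KO) mice and 3 from wild type (WT) mice, which makes 18 libraries in all. Pcgf6 belongs to PRC1.6, a polycomb complex, and the comparison asks what its loss does to transcript levels. The labels name no targeting construct and no clone or founder. They do not say whether the 3 libraries of a group came from separate animals, so p-values measure the spread between these libraries, which may be technical. KO libraries are numbered 4 to 6 and WT libraries 1 to 3 in each tissue, as in the labels.

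Germ cells control many genes at the level of RNA, and the proteins described here belong to that layer. Ddx4 is an RNA helicase of the germ granules in which piRNAs are made. Dazl and Boll are related proteins that bind messenger RNA and promote its translation, Dazl from early germ cells on and Boll in later stages of sperm formation. Meioc and Ythdc2 act together with Rbm46 when germ cells leave mitosis and enter meiosis. Nanos2 and Nanos3 are zinc finger repressors of messenger RNA in early germ cells and spermatogonia. Ybx2 packages and stores messenger RNA in meiotic cells and spermatids. Stk31 is a germ cell protein with a Tudor domain and a kinase-like domain. PRC1.6 contains Mga and Max, which recognise the E-box, and E2f6, which recognises the E2F motif, and it is known for keeping germ line genes silent in other cells.

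Levels are given as FPKM, the unit the authors deposited, in which fragments are divided by the length of the gene and by a size of the library, and as whole reads recovered from those values. Depth was 18990130 to 23529098 reads per library. Pcgf6 itself averaged 1.92 ± 0.65 FPKM in KO liver and 4.91 ± 0.79 FPKM in WT liver (SD, n = 3 each). It averaged 3.98 ± 0.60 FPKM in KO brain and 5.02 ± 0.38 FPKM in WT brain, and 9.93 ± 0.59 FPKM in KO testis and 20.9 ± 1.25 FPKM in WT testis (SD, n = 3 each). All KO libraries lay below all WT libraries in each tissue, and reads of the gene remained in every KO library. In brain 4.09% of the tested genes were separated in this direction. The limma log2 fold change of Pcgf6 was -1.35 ± 0.24 (SE) in liver, -0.34 ± 0.12 in brain and -1.06 ± 0.09 in testis. The limma adjusted p was 0.485, 0.9998 and 0.0638 in that order, so Pcgf6 was not called in any tissue. The labelled tissues carried their own markers, with summed levels of 6 liver markers at 67870 to 73373 FPKM in KO liver and 62003 to 70829 FPKM in WT liver, and of 6 brain markers at 923 to 974 FPKM in KO brain and 882 to 906 FPKM in WT brain. The list of 10 abundant testis transcripts summed to 24880 to 35127 FPKM in KO testis and 21497 to 29359 FPKM in WT testis.

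Some liver and brain libraries held reads of transcripts that are abundant in testis, and these libraries were not spread evenly over the groups. The list of 10 such transcripts gave 30 to 184 reads in KO liver and 75 to 82 reads in WT liver, and 720 to 1211 reads in KO brain and 737 to 1049 reads in WT brain. In WT liver and in brain most of these reads came from Hspa2, which both tissues also express. Without it, the other 9 (Prm1, Prm2, Tnp1, Tnp2, Odf1, Smcp, Akap4, Ldhc and Acrv1) summed to 0, 113 and 117 reads in liver KO 4, 5 and 6, and to 4, 2 and 9 reads in liver WT 1, 2 and 3. In brain they summed to 7, 251 and 92 reads in KO 4, 5 and 6, and to 12, 6 and 132 reads in WT 1, 2 and 3. Liver KO 5 and 6 and brain KO 5, KO 6 and WT 3 therefore stood apart, with all 9 transcripts present. All 9 were at 0 in liver KO 4, and 7 of the 9 were at 0 in brain KO 4. In testis the same 9 summed to 443361 to 548642 reads in KO libraries and 373882 to 522334 reads in WT libraries. In the same 3 brain libraries the liver transcript Alb had 270 and 345 reads in KO 5 and 6 and 611 reads in WT 3, against 24 reads in brain KO 4 and 1 and 3 reads in brain WT 1 and 2. Hspa2 was set aside after its values were seen. Fitted values of members in liver and brain are given below with and without these libraries. Where reads were too few for a fit, the values of each library are given.

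Promoter windows show how the members differ in the motifs that the DNA-binding subunits of PRC1.6 are known to recognise. RefSeq windows for GRCm38.p6, the mm10 build of the files, run from 250 bases before to 50 bases after each start, and 9 members matched with 12 windows. The motifs searched were the E-box CACGTG, which reads the same on both strands, and the E2F motif TCCCGC with its reverse GCGGGA, and no matches overlapped. An E-box was found in windows of 4 members (Ddx4, Rbm46, Stk31 and Boll) and an E2F motif in windows of 5 (Ddx4, Rbm46, Ybx2, Meioc and Boll). Counted by window, 5 of the 12 held the E-box and 6 the E2F motif. Of all 32851 RefSeq windows of the same length, 7.15% held the E-box, 20.0% the E2F motif and 1.99% both. The member windows with a motif had 58.7% to 78.0% G and C, against a median of 52.7% and an upper quartile of 61.7% over all windows. Windows of like G and C content were not compared. Ddx4 and Rbm46 were the 2 members with both motifs in the same window. In Ddx4 the E-box began 29 bases and the E2F motif 136 bases before the start. In Rbm46 they began 34 and 88 bases before the start. The observed over expected ratio of CpG was 0.98 in the window of Ddx4, 0.84 in that of Rbm46, 0.80 in that of Dazl, 0.13 in that of Nanos3 and 0 in that of Nanos2, against a median of 0.38 over all windows. The windows of Ddx4, Rbm46 and Ybx2, whose KO libraries lay above all WT libraries in liver and brain, are shown. Beside them is that of Dazl, which holds neither motif and whose level ran the other way in brain. These windows were picked by level, so they cannot show whether motifs go with level, which was not tested. Nanos2 held neither motif, and its KO brain libraries lay above its WT brain libraries on few reads. Meioc, Boll and Stk31 held a motif, and their KO and WT libraries overlapped in liver and brain. All windows shown are written 5′ to 3′ along the gene, and capitals mark the E-box and the E2F motif. Ddx4 lies at chr13:112652261-112652560 on the minus strand, Rbm46 at chr3:82876434-82876733 on the minus strand, Ybx2 at chr11:69935649-69935948 on the plus strand and Dazl at chr17:50293571-50293870 on the minus strand.
Ddx4: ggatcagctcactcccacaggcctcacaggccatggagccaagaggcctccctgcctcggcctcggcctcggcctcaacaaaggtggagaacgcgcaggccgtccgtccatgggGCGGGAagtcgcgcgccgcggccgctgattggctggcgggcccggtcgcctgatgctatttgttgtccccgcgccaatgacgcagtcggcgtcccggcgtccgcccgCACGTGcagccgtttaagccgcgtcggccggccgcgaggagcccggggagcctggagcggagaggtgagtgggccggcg
Rbm46: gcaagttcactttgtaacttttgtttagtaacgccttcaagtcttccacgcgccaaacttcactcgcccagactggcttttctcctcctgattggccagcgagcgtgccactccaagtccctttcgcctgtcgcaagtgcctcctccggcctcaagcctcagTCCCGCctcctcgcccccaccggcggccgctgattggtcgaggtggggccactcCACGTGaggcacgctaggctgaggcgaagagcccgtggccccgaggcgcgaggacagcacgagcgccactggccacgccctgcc
Ybx2: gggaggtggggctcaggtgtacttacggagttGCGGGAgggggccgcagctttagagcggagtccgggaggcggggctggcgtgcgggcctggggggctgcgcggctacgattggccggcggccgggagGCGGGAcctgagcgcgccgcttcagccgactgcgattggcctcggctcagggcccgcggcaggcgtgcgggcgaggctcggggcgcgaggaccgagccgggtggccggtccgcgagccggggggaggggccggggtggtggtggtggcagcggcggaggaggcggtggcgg
Dazl: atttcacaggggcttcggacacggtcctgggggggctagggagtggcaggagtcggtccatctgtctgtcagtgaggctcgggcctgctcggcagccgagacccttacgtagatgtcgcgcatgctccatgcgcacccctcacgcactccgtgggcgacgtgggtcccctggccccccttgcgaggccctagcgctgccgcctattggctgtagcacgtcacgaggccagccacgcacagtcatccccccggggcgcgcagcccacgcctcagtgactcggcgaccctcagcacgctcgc
In these lines the capitals near the right end of Ddx4 and Rbm46 are the E-box and those before it the E2F motif. Ybx2 shows 2 E2F motifs, 218 and 121 bases before the start, and no E-box. Its other window, not shown, holds 1 E2F motif and no E-box. A motif match describes these letters only, and binding was not measured here.

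In testis, where these proteins work, the members spanned a wide range of levels, and this order was nearly the same in both genotypes. Ybx2 stood highest, at 1219 ± 138 FPKM in KO testis and 1194 ± 5.82 FPKM in WT testis (SD, n = 3 each). Ddx4 followed with 175 ± 12.4 FPKM in KO testis and 159 ± 10.8 FPKM in WT testis. Dazl came next with 45.8 ± 3.37 FPKM in KO testis and 51.6 ± 3.46 FPKM in WT testis. Each of these 3 lay clear of its neighbours in both genotypes, with no overlap between libraries. Boll averaged 32.9 ± 1.76 FPKM in KO testis and 29.8 ± 3.44 FPKM in WT testis, beside Meioc at 30.0 ± 0.31 FPKM in KO testis and 29.8 ± 2.49 FPKM in WT testis. Boll lay above Meioc in all KO libraries, and the libraries of the pair overlapped in WT testis. Rbm46 averaged 20.9 ± 0.31 FPKM in KO testis and 18.6 ± 2.53 FPKM in WT testis. Stk31 averaged 20.4 ± 0.77 FPKM in KO testis and 22.0 ± 1.74 FPKM in WT testis, overlapping Rbm46 in KO testis and above it in WT testis. The low end held Ythdc2, with 3.88 ± 0.16 FPKM in KO testis and 3.71 ± 0.38 FPKM in WT testis, and Nanos3, with 1.49 ± 0.63 FPKM in KO testis and 1.83 ± 0.35 FPKM in WT testis. Nanos2, which marks a rare stem cell population, had 0, 1 and 0 reads in KO 4, 5 and 6 and 2, 3 and 0 reads in WT 1, 2 and 3.

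**Figure D1:**
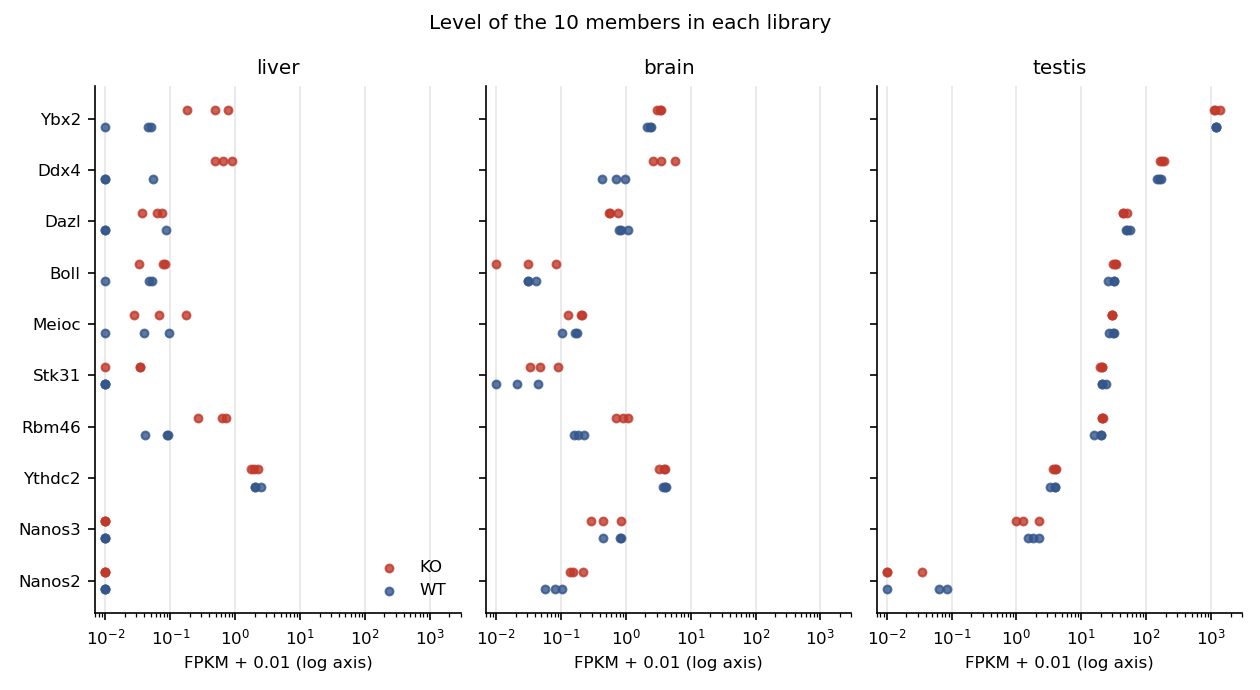
FPKM plus 0.01 on a log axis (x) of the 10 members (rows) in liver, brain and testis, 1 point per library, KO in red above WT in blue. In testis the members run from Ybx2, at 1127 to 1378 FPKM in KO, down to Nanos2 near 0. In liver and brain Ddx4, Rbm46 and Ybx2 show KO points to the right of all WT points. So does Nanos2 in brain, on 20 reads in KO and 9 in WT libraries. Of all tested genes, 4.94% in liver and 4.99% in brain were separated in this direction. Rbm46 and Ybx2 were not tested in liver.

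Outside testis most members were low, and for 8 of the 10 all WT testis libraries lay above all WT brain libraries in both FPKM and CPM, the recovered reads divided by the library's total and scaled to a common depth. The exceptions were Ythdc2, a helicase transcribed in many tissues, and Nanos2. The members were chosen as germ cell genes, and the same share over all genes was not computed, so this count is a description only. Ythdc2 was in fact the highest member in WT brain, at 3.94 ± 0.16 FPKM, and in liver at 1.98 ± 0.23 FPKM in KO and 2.15 ± 0.27 FPKM in WT libraries (SD, n = 3 each). In CPM, which does not carry the scaling of FPKM between tissues, Ythdc2 in brain stood at 108% of WT testis in KO libraries and 114% in WT libraries. In liver it stood at 31.3% in KO libraries and 34.8% in WT libraries. The order of the members in brain differed between the genotypes. In KO brain the highest 3 were Ddx4, Ythdc2 and Ybx2, whose libraries overlapped from each member to the next, and in WT brain Ythdc2 lay clear above Ybx2, and Ybx2 clear above Dazl. Ddx4 was the fifth in WT brain, overlapping none of the members ranked after it. In KO liver Ddx4, Rbm46 and Ybx2 followed Ythdc2 with overlapping libraries, and in WT liver all members other than Ythdc2 were at or under 0.085 FPKM in every library.

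Ddx4 (ENSMUSG00000021758, chromosome 13 from 112598333 to 112652475, mm10) was the member with the most reads in KO liver and KO brain relative to WT. In liver it measured 0.634, 0.471 and 0.897 FPKM in KO 4, 5 and 6, against 0, 0 and 0.045 FPKM in WT 1, 2 and 3. These levels rest on 24, 22 and 35 reads in the KO libraries and on 0, 0 and 2 reads in the WT libraries. No WT library came near a KO library, and the KO libraries differed among themselves by less than their distance to WT. Summed and scaled for library size, the KO to WT ratio of reads was 42.9, with a 95% interval of 11.5 to 360 that covers counting error only. In limma, on log2(FPKM + 0.1) where a low gene's change is understated, the log2 fold change was 2.72 ± 0.30 (SE) with a Benjamini-Hochberg adjusted p of 0.117, so Ddx4 was not called at 0.05. The log2 fold change was 0.71 with a pseudocount of 1 and 5.22 with one of 0.01. Of 14124 genes tested in liver, 3 (0.0212%) were called, all of them higher in KO; 4.38% had an unadjusted p under 0.05, as Ddx4 did at 3.31e-05, and in 4.94% the KO libraries all lay above the WT libraries. Ddx4 entered this test through its KO reads alone, since no WT library reached 10 reads. With liver KO 5 and 6 left out, which leaves KO 4 as a lone sample assumed to vary as the WT libraries do, the log2 fold change was 2.70 ± 0.43 (adjusted p = 0.581). Liver KO 4 held 24 Ddx4 reads and no read of the 9 testis transcripts. In liver KO 5 and 6 there were 0.195 and 0.299 Ddx4 reads per read of those transcripts, against 0.0235 to 0.0289 in KO testis and 0.0236 to 0.0291 in WT testis. In bulk tissue, more cells with the RNA and more RNA per cell cannot be told apart.

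In brain Ddx4 was detected in both genotypes and was higher in KO. It measured 3.44, 2.65 and 5.74 FPKM in KO 4, 5 and 6, against 0.693, 0.416 and 0.948 FPKM in WT 1, 2 and 3. The lowest KO library stood well above the highest WT library. The KO mean was 575% of the WT mean, from 942 reads in KO and 170 in WT libraries, and KO brain carried 2.67% of the WT testis level in CPM where WT brain carried 0.464%. The log2 fold change was 2.35 ± 0.33 with an adjusted p of 0.111 in limma, which did not pass 0.05, and the log2 fold change was 1.52 with a pseudocount of 1. Without brain WT 3, KO 5 and KO 6 it was 2.47 ± 0.30 (adjusted p = 0.177), again with KO 4 as a lone sample. Brain KO 4 had 259 Ddx4 reads beside 7 reads of the 9 testis transcripts, and brain WT 3 had 78 Ddx4 reads beside 132.

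Rbm46 (ENSMUSG00000033882, chromosome 3 from 82837228 to 82876483), the partner of Meioc and Ythdc2 at meiotic entry, was the member that rose in KO brain. Its level was 0.705, 1.06 and 0.906 FPKM in brain KO 4, 5 and 6, against 0.216, 0.147 and 0.176 FPKM in brain WT 1, 2 and 3. The groups lay far apart, on 44, 72 and 61 reads in KO and 15, 10 and 12 reads in WT libraries. Summed and scaled, the KO to WT ratio of reads, with no pseudocount, was 4.97 (95% counting interval 3.47 to 7.29). The log2 fold change was 1.81 ± 0.19 with a limma adjusted p of 0.0224. Its size depended on the scale, at 0.68 with a pseudocount of 1, 2.24 with one of 0.01 and 2.27 by voom on the reads. In brain 15 of 17922 tested genes (0.0837%) were called, 12 of them (0.0670%) higher in KO, and Rbm46 was the called gene among the 7 members tested. An unadjusted p under 0.05 was found for 4 of the 7 (Rbm46, Ddx4, Ybx2 and Dazl), against 4.46% of all genes tested, and 3 of the 7 had all KO libraries above all WT libraries, against 4.99%. The call was narrow: leaving out brain WT 1, WT 2, WT 3, KO 5 or KO 6, each in turn, ended it, with adjusted p between 0.0481 and 0.153 over the 6 libraries left out in turn. Without brain WT 3, KO 5 and KO 6 together the log2 fold change was 1.52 ± 0.31 (adjusted p = 0.459). Brain KO 4 held 44 Rbm46 reads beside 7 reads of the 9 testis transcripts.

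In liver Rbm46 measured 0.255, 0.619 and 0.711 FPKM in KO 4, 5 and 6, against 0.030, 0.078 and 0.081 FPKM in WT 1, 2 and 3. Every KO library lay above every WT library, and KO 4 was the lowest of the KO libraries. The reads were 8, 24 and 23 in KO and 1, 3 and 3 in WT libraries, too few for the test, and their scaled ratio was 8.33 with a 95% counting interval of 3.78 to 21.7. A fit with no filter gave a log2 fold change of 1.88 ± 0.41 with an adjusted p of 0.666. The KO libraries with more Rbm46 reads were those with testis transcripts. In liver KO 5 and 6 there were 0.212 and 0.197 Rbm46 reads per read of the 9 transcripts, against 0.00216 to 0.00295 in KO testis and 0.00245 to 0.00256 in WT testis. KO brain carried 5.15% of the WT testis level of Rbm46 in CPM and WT brain 1.04%, and KO liver carried 1.68% and WT liver 0.206%.

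**Figure D2:**
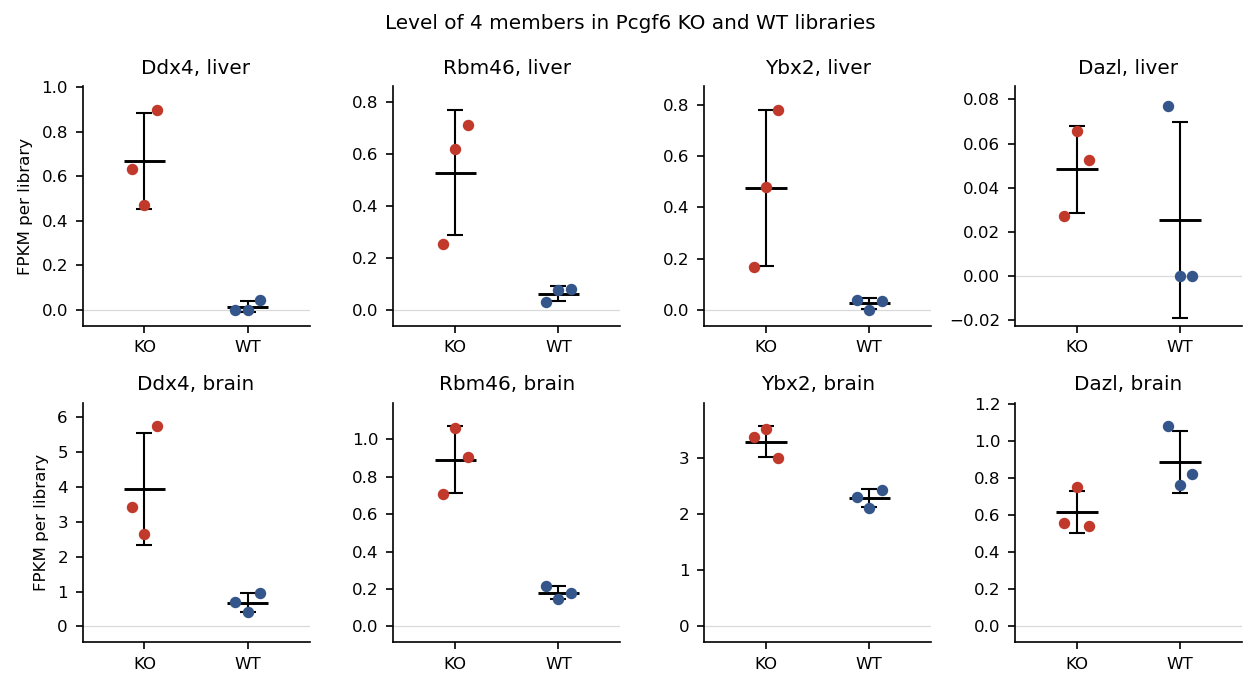
FPKM per library (y, linear axis) of Ddx4, Rbm46, Ybx2 and Dazl in liver (top) and brain (bottom), KO in red left of WT in blue; each point is a library, the thick line is the mean and the bar the SD over 3 libraries. Ddx4, Rbm46 and Ybx2 separate with KO above WT in both tissues, Dazl in brain separates with KO below WT, and Dazl in liver overlaps on 6 reads in KO and 3 reads in WT libraries.

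The partners of Rbm46 did not share this pattern. Meioc (chromosome 11 from 102663716 to 102682237), which binds Ythdc2, measured 0.191, 0.199 and 0.121 FPKM in brain KO 4, 5 and 6, against 0.156, 0.168 and 0.095 FPKM in brain WT 1, 2 and 3. The groups overlapped, with a log2 fold change of 0.17 ± 0.22 (limma adjusted p = 1.00), and 0.15 ± 0.31 (adjusted p = 0.938) without brain WT 3, KO 5 and KO 6. In liver Meioc had 1, 4 and 10 reads in KO 4, 5 and 6 and 0, 6 and 2 reads in WT 1, 2 and 3, which overlap. Ythdc2 (ENSMUSG00000034653, chromosome 18 from 44827746 to 44889724), a helicase with a YTH domain, measured 3.26, 4.01 and 3.92 FPKM in brain KO 4, 5 and 6, against 3.94, 3.78 and 4.11 FPKM in brain WT 1, 2 and 3. Its log2 fold change was -0.08 ± 0.10 in brain and -0.11 ± 0.16 in liver (limma adjusted p = 1.00 in each), with overlapping libraries in both. Without the libraries with testis transcripts it was -0.23 ± 0.12 in brain (adjusted p = 0.786) and -0.11 ± 0.24 in liver (adjusted p = 0.979). It was the one other member tested in liver, since 2 of the 10 passed the read filter there. In testis the 3 partners kept close levels between genotypes: the log2 fold changes were 0.01 ± 0.09 for Meioc, 0.07 ± 0.12 for Ythdc2 and 0.18 ± 0.11 for Rbm46. Rbm46 in testis had every KO library above every WT library, at 21.0, 20.6 and 21.2 FPKM in KO 4, 5 and 6 and 20.2, 19.9 and 15.7 FPKM in WT 1, 2 and 3 (limma adjusted p = 0.871). In testis 7.57% of the tested genes were separated in this direction. WT 3 lay furthest from KO, and without it the log2 fold change of Rbm46 was 0.06 ± 0.06 (adjusted p = 0.962). Testis WT 3 also stood apart in cell markers. Spermatid markers summed to 20377 to 29799 FPKM in KO testis, and to 24659, 24670 and 17555 FPKM in testis WT 1, 2 and 3. Sertoli markers summed to 412 to 524 FPKM in KO testis, and to 460, 472 and 628 FPKM in testis WT 1, 2 and 3. The part of these differences in the Rbm46 values was not tested.

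Ybx2 (ENSMUSG00000018554, chromosome 11 from 69935796 to 69941605), the store of germ cell messenger RNA, was higher in all KO than in all WT libraries of liver and brain. It was not called in brain, and in liver it had too few reads for the test. In brain it measured 3.38, 3.51 and 2.99 FPKM in KO 4, 5 and 6, against 2.31, 2.11 and 2.43 FPKM in WT 1, 2 and 3. The log2 fold change was 0.51 ± 0.10, with an unadjusted limma p of 0.000972 and an adjusted p of 0.436. The KO mean was 144% of the WT mean, a smaller shift than that of Ddx4 or Rbm46 on a higher WT level. Without brain WT 3, KO 5 and KO 6 the log2 fold change was 0.59 ± 0.15 (adjusted p = 0.566), and brain KO 4 had 159 Ybx2 reads beside 7 reads of the 9 testis transcripts. In liver Ybx2 measured 0.169, 0.479 and 0.778 FPKM in KO 4, 5 and 6, against 0.040, 0 and 0.036 FPKM in WT 1, 2 and 3. The reads were 4, 14 and 19 in KO and 1, 0 and 1 in WT libraries, with a scaled ratio of 19.6 (95% counting interval 5.06 to 168). Here the level followed the testis transcripts: liver KO 5 and 6 had 0.124 and 0.162 Ybx2 reads per read of the 9 transcripts, against 0.107 to 0.121 in KO testis and 0.110 to 0.146 in WT testis. Liver KO 4, with no such transcripts, had 4 Ybx2 reads. The part of testis RNA in the liver values of Ybx2 was not tested.

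**Figure D3:**
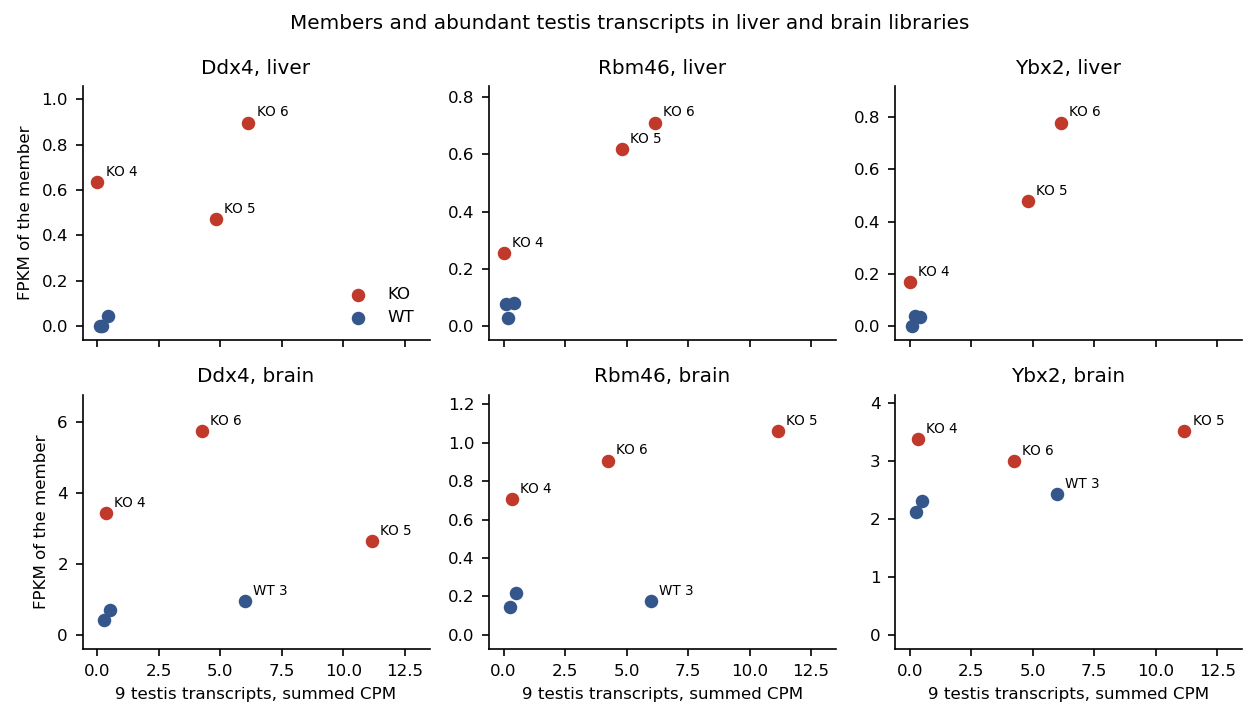
FPKM of Ddx4, Rbm46 and Ybx2 (y) against the summed CPM of 9 abundant testis transcripts (x) in the 6 liver (top) and 6 brain (bottom) libraries, KO in red and WT in blue. Liver KO 4 lies at 0 and brain KO 4 near 0 on the x axis with Ddx4 at 0.634 and 3.44 FPKM, while brain WT 3 lies at 5.98 with Ddx4 at 0.948 FPKM.

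Neither member of the DAZ family was called where it was tested, Dazl in brain and testis and Boll in testis. Reads were too few for a test of Dazl in liver and of Boll in liver and brain. Dazl (ENSMUSG00000010592, chromosome 17 from 50279394 to 50293599) measured 0.558, 0.750 and 0.543 FPKM in brain KO 4, 5 and 6, against 1.08, 0.764 and 0.821 FPKM in brain WT 1, 2 and 3. All KO libraries lay below all WT libraries, although KO 5 and WT 2 were close. The KO mean was 69.5% of the WT mean, on 144 reads in KO and 215 in WT libraries. The log2 fold change was -0.46 ± 0.18, with an unadjusted limma p of 0.0352 and an adjusted p of 1.00, so it was not called. Without brain WT 3, KO 5 and KO 6 it was -0.62 ± 0.27 (adjusted p = 0.771). In brain 4.09% of the tested genes had all KO libraries below all WT libraries. In liver Dazl had 1, 3 and 2 reads in KO 4, 5 and 6 and 3, 0 and 0 reads in WT 1, 2 and 3, which is not a detectable difference at this depth. Boll (ENSMUSG00000025977, chromosome 1 from 55248658 to 55363469) had 8 reads over the KO and 4 over the WT libraries of liver, and 9 over the KO and 7 over the WT libraries of brain. The counting intervals of these ratios, 0.568 to 9.62 in liver and 0.443 to 4.22 in brain, span equality. Boll overlaps the pseudogene Gm8292, which had up to 12 reads in a liver, 39 in a brain and 90 in a testis library. In testis Dazl measured 44.0, 49.7 and 43.8 FPKM in KO 4, 5 and 6, against 51.1, 48.4 and 55.3 FPKM in WT 1, 2 and 3, with a log2 fold change of -0.17 ± 0.09. Boll in testis had a log2 fold change of 0.15 ± 0.11, and the limma adjusted p was 0.871 for each.

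The Nanos genes were read at the edge of detection. Nanos2 (chromosome 7 from 18987400 to 18988962) had 5, 9 and 6 reads in brain KO 4, 5 and 6, against 4, 2 and 3 reads in brain WT 1, 2 and 3. The groups did not overlap, with KO above WT, and the scaled ratio of 20 reads in KO to 9 in WT was 2.31 with a 95% counting interval of 1.01 to 5.76. No library reached the 10 reads of the filter, so Nanos2 was not tested in any tissue. A fit with no filter gave a log2 fold change of 0.61 ± 0.24 in brain with a limma adjusted p of 0.960. Nanos3 (chromosome 8 from 84173731 to 84185217) measured 0.823, 0.278 and 0.442 FPKM in brain KO 4, 5 and 6, against 0.429, 0.797 and 0.832 FPKM in brain WT 1, 2 and 3. These overlap, with a log2 fold change of -0.41 ± 0.36 (limma adjusted p = 1.00) that turned to 0.42 without brain WT 3, KO 5 and KO 6. In testis Nanos3 had 46, 23 and 29 reads in KO 4, 5 and 6 and 49, 42 and 34 reads in WT 1, 2 and 3, again overlapping. Neither gene had a read in any liver library, and 3 reads, the limit that a count of 0 allows, would be at most 0.153 FPKM for Nanos2 and 0.259 FPKM for Nanos3 in a liver library. The preparation is not stated to keep strand. Nanos3 overlaps Mir181c and Mir181d, which had up to 4 reads in a library, and Nanos2 overlaps the antisense gene Gm45058, which had 0.

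Stk31 (chromosome 6 from 49395604 to 49469501) was a testis gene in these data. It measured 21.1, 20.6 and 19.6 FPKM in testis KO 4, 5 and 6, against 20.8, 21.2 and 24.0 FPKM in testis WT 1, 2 and 3. The groups overlapped, with a log2 fold change of -0.10 ± 0.09 (limma adjusted p = 0.871). In liver it had 1, 0 and 1 reads in KO 4, 5 and 6 and none in WT libraries, and in brain 3, 7 and 2 reads in KO 4, 5 and 6 and 0, 1 and 3 reads in WT 1, 2 and 3. The brain ratio of 3.12 has a counting interval of 0.945 to 13.3, which includes equality. Its 2 promoter windows, which overlap, hold an E-box and no E2F motif. The pseudogene Gm17060 within it had up to 14 reads in a testis library and none in liver or brain.

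In testis none of the 9 members tested was called, by limma on FPKM or by voom on the reads, and none had an unadjusted p under 0.05. The background was 1 of 22341 tested genes called (0.00448%) and 4.13% with an unadjusted p under 0.05. The limma log2 fold changes of the members lay between -0.34 ± 0.29 for Nanos3 and 0.18 ± 0.11 for Rbm46. Ddx4, at 189, 164 and 172 FPKM in testis KO 4, 5 and 6 and 170, 159 and 148 FPKM in testis WT 1, 2 and 3, had 0.14 ± 0.10. Ybx2, at 1378, 1127 and 1153 FPKM in testis KO and 1197, 1199 and 1188 FPKM in testis WT libraries, had 0.02 ± 0.13. In the testis fit the lists of cell stages held no called gene either. The median log2 fold change was -0.21 over 8 spermatogonia markers, -0.07 over 7 spermatocyte markers, 0.12 over 8 spermatid markers, -0.18 over 8 Sertoli markers and 0.05 over 6 Leydig markers, against 0.03 over all genes tested. Stra8, a gene of meiotic entry, had -0.45 ± 0.17 (limma adjusted p = 0.871) with overlapping libraries, at 6.27, 7.60 and 5.69 FPKM in testis KO and 7.57, 8.57 and 10.9 FPKM in testis WT libraries. The part of cell makeup in the testis values of the members was not tested.

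**Figure D4:**
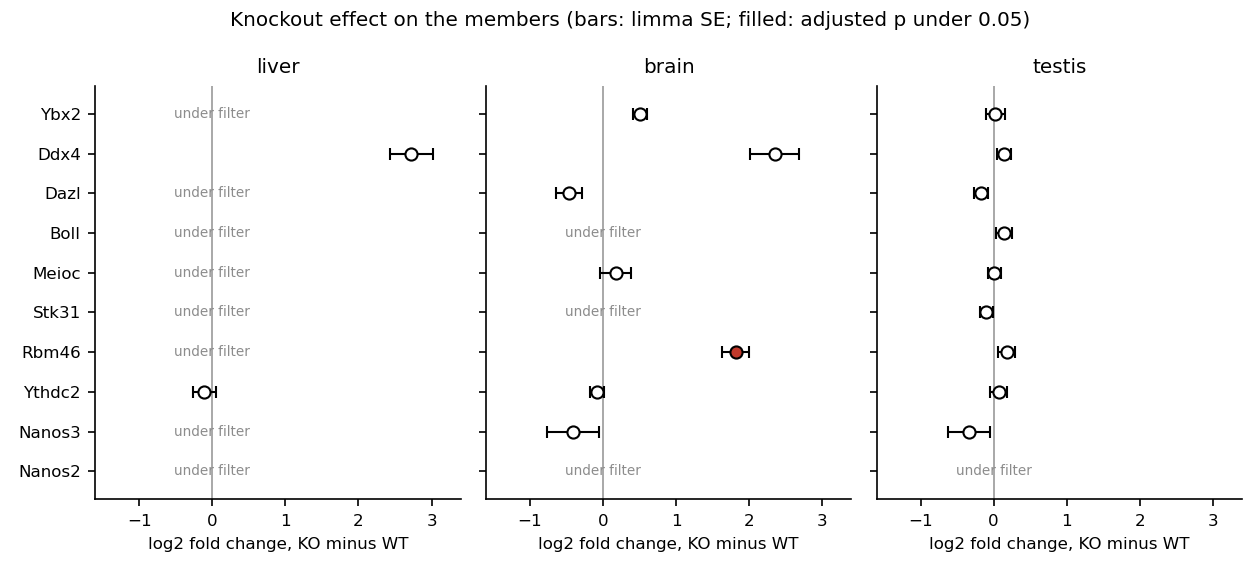
Limma log2 fold change, KO minus WT, on log2(FPKM + 0.1) (x) of each member (rows) in liver, brain and testis; bars are the SE and a filled point has an adjusted p under 0.05. Rbm46 in brain, at 1.81, is the filled point, Ddx4 stands at 2.72 in liver and 2.35 in brain, and the testis points lie between -0.34 and 0.18.

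The difference in KO effect between tissues was called for Ddx4 between testis and liver and for Rbm46 between testis and brain. Rbm46 was not tested against liver, where it did not pass the read filter. For Ddx4 the KO effect in testis minus that in liver was -2.58 ± 0.27 on the log2 scale (limma adjusted p = 0.00208), where 6 of 13133 genes tested (0.0457%) were called, all lower. Ddx4 entered this comparison through its KO liver reads alone. With so few WT liver reads, it could pass the filter only through higher KO reads, which limits the call. Without liver KO 5 and 6 the difference was -2.56 ± 0.25 (adjusted p = 0.00465), with liver KO 4 as a lone sample. For Rbm46 the effect in testis minus that in brain was -1.64 ± 0.21 (adjusted p = 0.00763), where 10 of 15962 genes tested (0.0626%) were called, 9 of them (0.0564%) lower. Without brain WT 3, KO 5 and KO 6 it was -1.35 ± 0.23 (adjusted p = 0.225), and the call was lost. Ddx4 in testis minus brain had -2.21 ± 0.37 (adjusted p = 0.0889) and Ybx2 -0.48 ± 0.13 (adjusted p = 0.726), and neither was called. Without those 3 brain libraries Ddx4 was called, at -2.33 ± 0.27 (adjusted p = 0.0202). Dazl had 0.29 ± 0.19 in the same comparison (adjusted p = 0.928). Between brain and liver, where 0 of 12922 genes were called and 4.84% had an unadjusted p under 0.05, Ddx4 had -0.37 ± 0.47 (adjusted p = 1.00). The calls for Ddx4 against liver and Rbm46 against brain were also lost with a pseudocount of 1 in place of 0.1, at -0.57 and -0.51. Testis libraries enter both called differences, and a log2 fold change is pressed toward 0 by the pseudocount in liver and brain more than in testis, where levels are high.

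**Figure D5:**
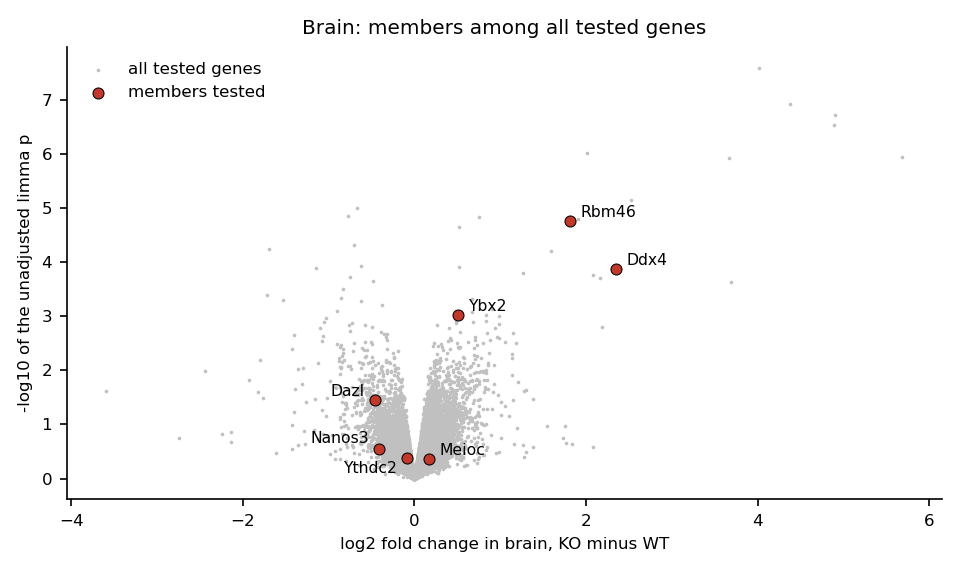
Brain log2 fold change, KO minus WT (x), against the -log10 of the unadjusted limma p (y) for all 17922 genes tested (grey) and the 7 members tested (red, named). Rbm46 and Ddx4 lie far to the right at 1.81 and 2.35, Ybx2 at 0.51 and Dazl at -0.46, and Meioc, Ythdc2 and Nanos3 lie near the bottom.

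Other regulators of RNA in germ cells, a list of 21 genes, showed no called member in any tissue. In liver 6 were tested, with a median log2 fold change of 0.11 beside 0.0007 over all genes tested. In brain 11 were tested with a median of 0.02 beside 0.007, and in testis 20 with a median of -0.09 beside 0.03. Those with an unadjusted limma p under 0.05 were 1 in liver, 0 in brain and 2 in testis. Cpeb1, which controls poly-A tail length and translation, measured 2.36, 2.43 and 1.90 FPKM in liver KO 4, 5 and 6, against 1.15, 0.826 and 1.41 FPKM in liver WT 1, 2 and 3. KO and WT libraries did not overlap, with 0.94 ± 0.22 (adjusted p = 0.627). Nxf2, an RNA export factor of the X chromosome, measured 5.45, 6.55 and 5.57 FPKM in testis KO and 7.58, 6.91 and 7.81 FPKM in testis WT libraries, with -0.34 ± 0.11 (limma adjusted p = 0.871). Patl2, an oocyte RNA-binding protein, had -0.52 ± 0.18 in testis (limma adjusted p = 0.871). Dnd1, the partner of Nanos2 in spermatogonia, had 0.55 ± 0.40 in liver and 0.37 ± 0.17 in brain with overlapping libraries (limma adjusted p = 1.00 in each). Ddx25, a helicase of round spermatids, had 1, 8 and 9 reads in liver KO 4, 5 and 6 and 0 in each liver WT library, under the filter, and 0.11 ± 0.07 in brain.

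A list of paralogs of the members, most of them expressed in somatic tissues, stayed uncalled too. The list includes D1Pas1, a testis gene in these data, at 89.4 ± 9.18 FPKM in KO testis and 76.7 ± 8.60 FPKM in WT testis. Its highest group mean in liver or brain was 0.037 FPKM, in KO liver. Of 13 such paralogs 11 were tested in liver, 11 in brain and 13 in testis, with median log2 fold changes of 0.07, -0.01 and 0.10. In that order of tissues, 0, 1 and 1 of them had an unadjusted limma p under 0.05. Ddx3x, a broadly used relative of Ddx4, averaged 42.2 ± 1.23 FPKM in KO brain and 43.3 ± 3.32 FPKM in WT brain (SD, n = 3 each). Ybx3, a relative of Ybx2, averaged 10.2 ± 0.76 FPKM in KO brain and 9.09 ± 0.27 FPKM in WT brain, with 0.17 ± 0.07 (limma adjusted p = 1.00). Nanos1, the Nanos gene that adult brain uses, averaged 5.85 ± 0.52 FPKM in KO brain and 6.06 ± 0.28 FPKM in WT brain. A1cf, a relative of Rbm46 that serves RNA editing in liver, averaged 55.7 ± 11.5 FPKM in KO liver and 51.5 ± 8.85 FPKM in WT liver. In testis A1cf had 0.84 ± 0.28 (limma adjusted p = 0.871), at 2.69 ± 0.83 FPKM in KO and 1.46 ± 0.44 FPKM in WT libraries (SD, n = 3 each).

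Across the 12 liver and brain libraries the genes whose levels were most like those of Ddx4 and Rbm46 included several known germ cell genes. Likeness was the Pearson r of log2(FPKM + 0.1), centred within each tissue, over 19208 other genes. It includes the difference between KO and WT, and the points share depth and the testis transcripts of some libraries. For Ddx4 the leading 5 were Mael at r = 0.98, Slc25a31 at 0.97, Syce1 at 0.95, Xlr4b at 0.94 and Rnf17 at 0.94, with Rbm46 ranked 6 at 0.92. For Rbm46 they were Cenpw at 0.94, Slc25a31 at 0.93, Mael at 0.92, Ddx4 at 0.92 and Syce1 at 0.91. Mael is a piRNA pathway protein, Slc25a31 a mitochondrial carrier of sperm, Syce1 a part of the synaptonemal complex and Rnf17 a Tudor domain protein of germ cells. Cenpw belongs to the centromere and is used by dividing cells in general. Mael averaged 15.0 FPKM in KO liver and 0 in WT liver, and 9.0 FPKM in KO brain and 0.091 FPKM in WT brain. Rnf17 averaged 0.095 FPKM in KO liver and 0.019 FPKM in WT liver, and 0.172 FPKM in KO brain and 0.103 FPKM in WT brain. Cenpw averaged 0.753 FPKM in KO liver and 0.508 FPKM in WT liver, and 0.551 FPKM in KO brain and 0.395 FPKM in WT brain. Xlr4b has near-identical copies, so its reads are uncertain. Among the members Ybx2 ranked 22 to Rbm46, at 0.84, and Meioc had 0.54, while Dazl had -0.08, Ythdc2 -0.28 and Nanos3 -0.39.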

How the data were processed

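The authors deposited FPKM for 52636 genes in each of 18 libraries. The submitters' processing notes name the mm10 build, HISAT2 2.0.5, featureCounts 1.5.0-p3 and DESeq2 1.16.1. Once gene length was multiplied back in, the values of a library were whole multiples of what 1 read is worth there (tolerance 0.01 reads), which gave reads per gene and totals of 18990130 to 23529098 per library. FPKM as deposited was scaled by size factors, recovered over 14876 genes. Total reads divided by this scaling gave 1.44 to 1.52 for liver, 0.806 to 0.835 for brain and 0.823 to 0.969 for testis libraries, so CPM were used between tissues.

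KO and WT libraries of a tissue were compared in limma 3.58.1 under R 4.3.3, with a mean-variance trend, on log2(FPKM + 0.1). Genes needed 10 or more reads in 3 or more of the 6 libraries. Differences between tissues were fitted on 12 libraries. P-values were adjusted over all genes tested, and called, rose and fell refer to an adjusted p under 0.05. The steps were tested on simulated data. Other steps ran in Python 3.11.15 (scipy 1.17.1, pandas 2.3.3, numpy 2.4.6; figures by matplotlib 3.10.9). Intervals of read ratios are exact binomial and cover counting error only.

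The members, lists and tests were chosen with earlier results of these data known. Named were the 10 members, Pcgf6, of each list the called genes or, with none, up to 3 with the smallest p, and the 5 genes most like Ddx4 and Rbm46. Other genes were named after their values were seen. The labels give no shared animal. Deviations from group means correlated positively in every pair of the same order in liver (0.354, 0.162 and 0.299). They also did in every pair of the same number between testis and liver (0.118 to 0.228) and between brain and liver (0.055 to 0.236). Not every pair was positive in brain (-0.085 to 0.252), in testis (-0.065 to 0.090) or between testis and brain (-0.003 to 0.242). The main fits used no pairing in any comparison, and a replicate block was fitted as an alternative only. Alternatives were the pseudocount (0.01 and 1), the filter, all 18 libraries in 1 fit, voom on the reads, plain library totals, the replicate block and each library left out. Leaving out libraries with testis transcripts was chosen after seeing the data. Protein sequences were not used here.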

Additional observations from a re-analysis of the deposited data

Results flagged for a closer look

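The KO effect on Ddx4 in testis minus that in liver was -2.58 on the log2 scale (SE 0.27, limma adjusted p = 0.00208, from 0.000615 to 0.545 over 19 alternatives), and the test of this difference flagged it. Ddx4 passed the read filter in liver through its KO libraries alone, with 24, 22 and 35 reads in KO and 0, 0 and 2 reads in WT libraries. A gene this low in WT liver could enter only with higher KO reads, and the call is limited by that choice. Levels were 164 to 189 FPKM in KO testis and 148 to 170 FPKM in WT testis, and 0.471 to 0.897 FPKM in KO liver and 0 to 0.045 FPKM in WT liver. Liver KO 5 and 6 also held testis transcripts and liver KO 4 did not; without KO 5 and 6 the difference was -2.56 (adjusted p = 0.00465).

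The KO effect on Rbm46 differed between testis and brain, at -1.64 on the log2 scale (testis minus brain, SE 0.21, limma adjusted p = 0.00763). It was called in 15 of 19 alternatives, with adjusted p from 0.00277 to 0.895, and not without brain WT 3, KO 5 and KO 6, which held testis transcripts (-1.35, adjusted p = 0.225). Levels were 20.6 to 21.2 FPKM in KO testis and 15.7 to 20.2 FPKM in WT testis, and 0.705 to 1.06 FPKM in KO brain and 0.147 to 0.216 FPKM in WT brain. Both differences share the testis libraries.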

How the results depend on the processing

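Over 29 member results and 468 alternatives, 424 kept their direction and side of the threshold, 14 lost the call, 8 gained it and 22 changed sign; the cause was not tested. The Rbm46 call in brain held in 7 of 15 alternatives and was lost with no filter (adjusted p = 0.160), with the replicate block (0.157) and without the libraries with testis transcripts (0.459); brain libraries do not pair by the check, so the block is a description there. Ddx4 in brain was called with the replicate block (0.00564), voom (0.0444) and all 18 libraries (0.00061), and in liver with all 18 (8.35e-05). Earlier work found too many false calls in a fit of all 18, so calls with all 18 are given as a description only. Ddx4 in testis minus liver was lost with pseudocounts of 0.01 (0.0530) and 1 (0.545), and kept with the replicate block (0.0172). Rbm46 in testis minus brain was lost with a pseudocount of 1 (0.895), all 18 libraries (0.251), the replicate block (0.0535) and without the libraries with testis transcripts (0.225). Ddx4 in testis minus brain was called with voom (0.0282) and without brain WT 3 (0.0362) or brain KO 5 (0.0346), or without the libraries with testis transcripts (0.0202). The block changed no other call. Members called were 1 in liver with all 18; in brain 0 with no filter and without the libraries with testis transcripts, 2 with all 18 and with voom, and 0 to 1 with 1 library left out; in testis minus liver 0 with pseudocounts of 0.01 and 1; and in testis minus brain 0 with a pseudocount of 1, all 18 and the block, 2 with voom, and 1 to 2 with 1 library left out. Genes called in liver were 87 with all 18, 0 with the stricter filter and 2 to 5 with 1 library left out; in brain 27 with all 18, 9 with the block and without the libraries with testis transcripts, 5 with the stricter filter and 8 to 12 with 1 left out; in testis 0 with no filter, 36 with all 18, 2 with voom and with the stricter filter and 0 to 3 with 1 left out. They were in brain minus liver 2 and 1 with pseudocounts of 0.01 and 1, 17 with no filter, 4 with all 18 and 0 to 4 with 1 left out; in testis minus liver 3 with a pseudocount of 0.01, 32 with no filter, 17 with all 18 and 5 to 11 with 1 left out; and in testis minus brain 31 with no filter and 10 to 14 with 1 left out. Signs turned for uncalled values: with library totals in testis Ybx2 -0.057, Ythdc2 -0.011 and Meioc -0.071; with a pseudocount of 1 Ddx4 in brain minus liver 0.81 and Nanos3 in testis minus brain -0.045; without the libraries with testis transcripts Nanos3 in brain 0.42 and in testis minus brain -0.76, and Ythdc2 in brain minus liver -0.12. With 1 library left out Ythdc2 ran from -0.14 to 0.0094 in brain, -0.017 to 0.11 in testis and -0.069 to 0.12 in brain minus liver, Ybx2 from -0.068 to 0.078 and Meioc from -0.061 to 0.052 in testis, and Nanos3 from -0.23 to 0.41 in testis minus brain. Too few reads for the filter limited Nanos2 in all tissues, Boll and Stk31 in liver and brain, and Rbm46, Ybx2, Meioc, Dazl and Nanos3 in liver.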
